A study of Homo sapiens with 84 samples.

Results

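Control cultures of FaDu cells were compared between 72 h and 6 h, using the libraries whose label carries replicate number 3 or 4, which are 7 of the 84 libraries of the series. FaDu is an established human cell line from a squamous carcinoma of the hypopharynx. The series measured mRNA by 3′-end sequencing (QuantSeq) in FaDu cells and in Kyse30 cells, a line from a squamous carcinoma of the esophagus, with and without activation of the epidermal growth factor receptor EGFR. Treated cells were given epidermal growth factor (EGF) at a low or a high dose (EGFlow, EGFhigh), the extracellular domain of EpCAM fused to an immunoglobulin Fc (EpEX), or EGFhigh with EpEX. At 6 h, the controls were untreated cells in replicates 3 and 4 and cells given the Fc part alone in replicates 3 and 4 (4 libraries). At 72 h, they were untreated cells in replicate 4 and Fc cells in replicates 3 and 4 (3 libraries). Untreated cells are the control for EGF, and Fc cells are the control for EpEX. All these cultures had been plated with fetal calf serum and then kept without serum for 24 h before the clock started, and they stayed without serum until collection. The comparison thus follows the same control condition over a longer time without serum, and serum-free time, time in culture and cell density cannot be told apart. No label says that the replicate numbers are separate cultures, so that p-values measure the spread between these samples, which may be technical.

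Totals on genes were 7889819 to 9618224 reads in the 4 libraries at 6 h and 8089409 to 11333589 in the 3 libraries at 72 h, so that 3 reads, taken as the floor of detection, equal 0.265 to 0.380 CPM (reads scaled to an equal total in each library). These floors cover counting error only. In such bulk libraries, a lower share of cells that express a gene and less of its RNA per cell cannot be told apart. 3 measures of the libraries moved with time, and their part in the results was not tested. Mitochondrial genes took 8.51% to 11% of reads at 6 h and 12.8% to 13.2% at 72 h, reads outside genes took 6.82% to 8.46% and 9.24% to 10.1%, and 16206 to 17359 and 18070 to 18969 genes had at least 1 read. All 10 squamous epithelial markers passed the filter on low counts, with a summed level of 1301 to 1641 CPM at 6 h and 1658 to 2059 CPM at 72 h. Fibroblast markers summed to 8.52 to 16.1 CPM and leukocyte markers to 0.357 to 1.33 CPM over the 7 libraries. Over 12935 genes, the 7 libraries had Spearman correlations of 0.925 to 0.985 with each other (median 0.963). Against the 7 FaDu control libraries of replicates 1 and 2, the median was 0.828, which was below the median of 0.841 against the 12 Kyse30 control libraries. Replicates 1 and 2 were also less alike among themselves, at 0.811 to 0.879 (median 0.845). FaDu libraries of replicates 1 and 2 thus stood apart from those of replicates 3 and 4, and everything described here holds for replicates 3 and 4.

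Several programs of nutrient supply are known to respond to what a culture medium offers. Cells can take up cholesterol from serum lipoproteins or make it from acetyl-CoA, and the transcription factors SREBP2 and SREBP1 switch on the enzymes of sterol and fatty acid synthesis when membrane sterol is low. ATF4 is a transcription factor whose translation rises under amino acid shortage or endoplasmic reticulum stress, and it switches on amino acid synthesis, amino acid import and tRNA charging. Interferon-stimulated genes are switched on by STAT and IRF factors after interferon or nucleic acid sensing, and metallothioneins are small metal-binding proteins switched on by zinc through MTF1.

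A gene was called a differentially expressed gene (DEG) at an adjusted p of at most 0.05 in the quasi-likelihood test of edgeR and an absolute log2 fold change (log2FC, 72 h minus 6 h) over 0.5. Of 12935 genes tested, 2082 were DEGs (16.1%), of which 1090 were higher at 72 h (8.43%) and 992 were lower (7.67%). The median log2FC of all genes was 0.018. The libraries of both times did not overlap in CPM for 3881 genes (30%). Among the 24 DEGs at the ends of the ranking, those that were highest at 72 h included STARD4, MVD and INSIG1 of cholesterol supply, and those that were lowest included CHAC1, the glycine transporter SLC6A9, INHBE and NIBAN1, which are stress-responsive genes, and the metallothionein MT1E. Genes of low abundance were more often higher than lower: of 2911 genes at a mean of 1 to 5 CPM, 197 were higher and 54 lower, while of 1867 genes at 100 CPM or more, 104 were higher and 235 lower. With FaDu replicates 1 and 2 in place of 3 and 4, edgeR called 0 DEGs, while 403 genes had a p under 0.05 before adjustment, and 1029 of 1879 DEGs that could be tested there had the same sign.

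**Figure D1:**
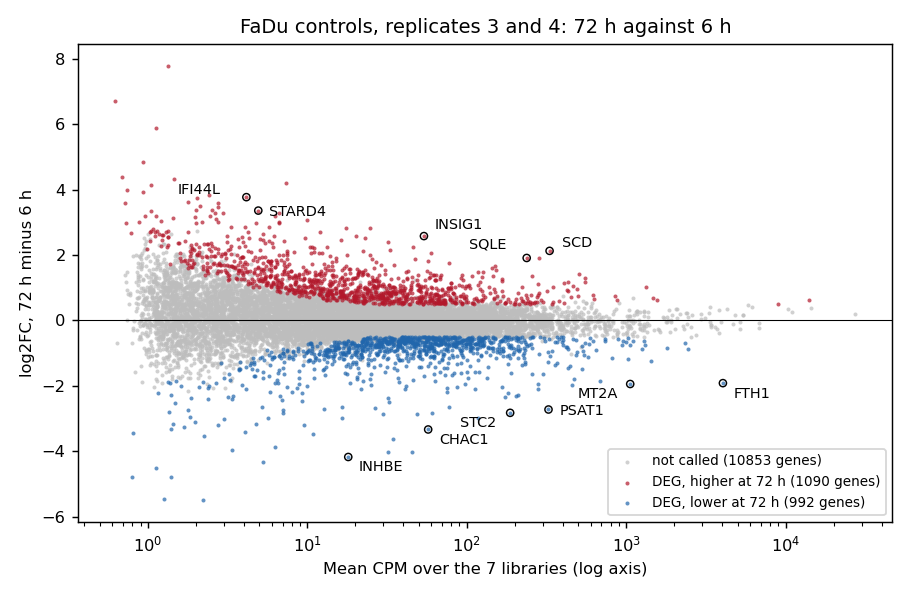
Mean level (CPM, log axis) of each of the 12935 genes tested over the 7 libraries against its log2FC, 72 h minus 6 h, with the 1090 DEGs that were higher and the 992 that were lower in colour and other genes in grey. Genes of cholesterol supply such as STARD4 and INSIG1 lie at the upper edge, and CHAC1, INHBE and STC2 at the lower edge.

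Promoter windows of members of the 4 programs are shown first, because the programs are defined by factors that bind short motifs. They were read from the RefSeq table of promoters on GRCh38.p14, which spans 250 bases before to 50 after a gene's start. Each window is written 5′ to 3′ on the strand of its gene, and capitals mark the motif. The motif TGATGNAA, the C/EBP-ATF response element, was searched on both strands for the ATF4 program, and it is in capitals in these windows of genes that were lower at 72 h, the first of which holds it on the opposite strand.
CHAC1, chr15:40953251-40953280, plus strand: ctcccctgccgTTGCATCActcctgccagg
ASNS, chr7:97872458-97872487, minus strand: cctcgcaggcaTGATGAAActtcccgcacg
CEBPG, chr19:33374060-33374089, plus strand: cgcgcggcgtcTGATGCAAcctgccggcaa
SLC1A5, chr19:46784893-46784922, minus strand: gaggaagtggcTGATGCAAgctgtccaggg
The sterol regulatory element was searched as TCACNCCAC and stands in the promoter of SREBF2, which encodes SREBP2 itself.
SREBF2, chr22:41832962-41832991, plus strand: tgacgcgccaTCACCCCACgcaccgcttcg
The interferon-stimulated response element was searched as GAAA, any 2 bases and GAAA again, and the last 3 of these windows hold it on the opposite strand.
IFI44L, chr1:78620365-78620394, plus strand: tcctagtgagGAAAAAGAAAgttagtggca
GBP1, chr1:89065316-89065345, minus strand: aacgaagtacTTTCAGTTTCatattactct
MX1, chr21:41431844-41431873, plus strand: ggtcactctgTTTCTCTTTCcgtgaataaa
IFI44, chr1:78649761-78649790, plus strand: gcacactgagTTTCAGTTTCctttctctga
The metal response element was searched as TGCACNC or TGCGCNC.
MT2A, chr16:56608519-56608548, plus strand: ggcggggctttTGCACTCgtcccggctctt
MT1X, chr16:56682406-56682435, plus strand: ggcggggcctcTGCGCCCggccctcttccc

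These matches are descriptions of letters in a window. A gene was counted when any of its promoters in the table held the motif. TGATGNAA occurred in 8 of the 25 DEGs of the ATF4 list with a promoter in the table (32.0%) and in 4.46% of all 27305 genes with one. The interferon-stimulated response element occurred in 13 of 18 DEGs of the interferon list (72.2%) and in 4.38% of all these genes. TCACNCCAC occurred in 1 of 14 DEGs of the cholesterol list (7.14%) and in 1.39% of all these genes. The metal response element, a short motif, occurred in both metallothionein DEGs with a promoter in the table and in 33.4% of all these genes. Over all list members with a promoter, called or not, the shares were 34.5% (10 of 29) for the ATF4 list and 70.0% (28 of 40) for the interferon list, close to the shares among their DEGs. Among genes tested that had a promoter in the table, the shares were 2.55% for TGATGNAA and 3.59% for the interferon-stimulated response element. They were 1.39% for TCACNCCAC and 46.8% for the metal response element.

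The cholesterol genes were higher at 72 h nearly as a whole. Of the 25 genes of synthesis and uptake, all tested, 21 were DEGs, all of them higher, where 8.43% of all genes tested were higher. Their median log2FC was 1.61, and in 24 of the 25 every library at 72 h lay above every library at 6 h. This held for 14.9% of all genes tested. The summed level of the 25 genes was 797 to 994 CPM at 6 h and 2762 to 2846 CPM at 72 h.

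Among the regulators of the pathway, INSIG1, which holds SREBP2 in the endoplasmic reticulum when sterol is plentiful, had 18.9 and 13.1 CPM in untreated and 16.1 and 20.6 CPM in Fc cells at 6 h (replicates 3 and 4). It reached 87.8 CPM in untreated and 117 and 104 CPM in Fc cells at 72 h, with a log2FC of 2.58 ± 0.17 (adjusted p = 1.71e-06). SREBF2 rose from a mean of 78.2 ± 10.2 CPM (SD, n = 4) to 177 ± 13.5 CPM (SD, n = 3).

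Enzymes rose along the length of the pathway. HMGCS1, which makes HMG-CoA, had 24.8 to 30.4 CPM at 6 h and 76.8 to 122 CPM at 72 h (log2FC 1.81 ± 0.16). MVD, which makes isopentenyl pyrophosphate, had 5.52 to 7.83 CPM and 40.9 to 60.3 CPM (log2FC 2.82 ± 0.20). SQLE, which oxidizes squalene, had 91.5 to 139 CPM and 381 to 464 CPM (log2FC 1.91 ± 0.15). STARD4, a carrier of cholesterol between membranes, had 0.720 to 1.41 CPM and 7.23 to 14.1 CPM (log2FC 3.36 ± 0.39). None of these ranges overlapped, and adjusted p-values of the 4 genes in edgeR were at most 0.000116. MVD and STARD4 came from a rule that asked for DEGs without overlap, and HMGCS1, SQLE and SREBF2 were chosen after their values were seen. For the 4 genes, the lack of overlap and the low p-values are thus not separate results.

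Fatty acid synthesis moved the same way in part. Of its 15 genes, 9 were DEGs, all higher, with a median log2FC of 0.63, where 8.43% of all genes tested were higher. SCD, the desaturase that makes oleate from stearate, had 131 and 125 CPM in untreated and 135 and 151 CPM in Fc cells at 6 h, and 555 CPM in untreated and 582 and 638 CPM in Fc cells at 72 h. Its log2FC was 2.13 ± 0.11 (adjusted p = 4.06e-07), and its libraries were tightly spaced at both times. FASN, fatty acid synthase, had 303 to 405 CPM at 6 h and 647 to 939.5 CPM at 72 h (log2FC 1.30 ± 0.15). FADS1 and ELOVL6, a desaturase and an elongase of long-chain fatty acids, had a log2FC of 1.27 ± 0.12 and 1.32 ± 0.18. ACACA, acetyl-CoA carboxylase, had a log2FC of 0.63 ± 0.12 (adjusted p = 0.00417; chosen after its value was seen).

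**Figure D2:**
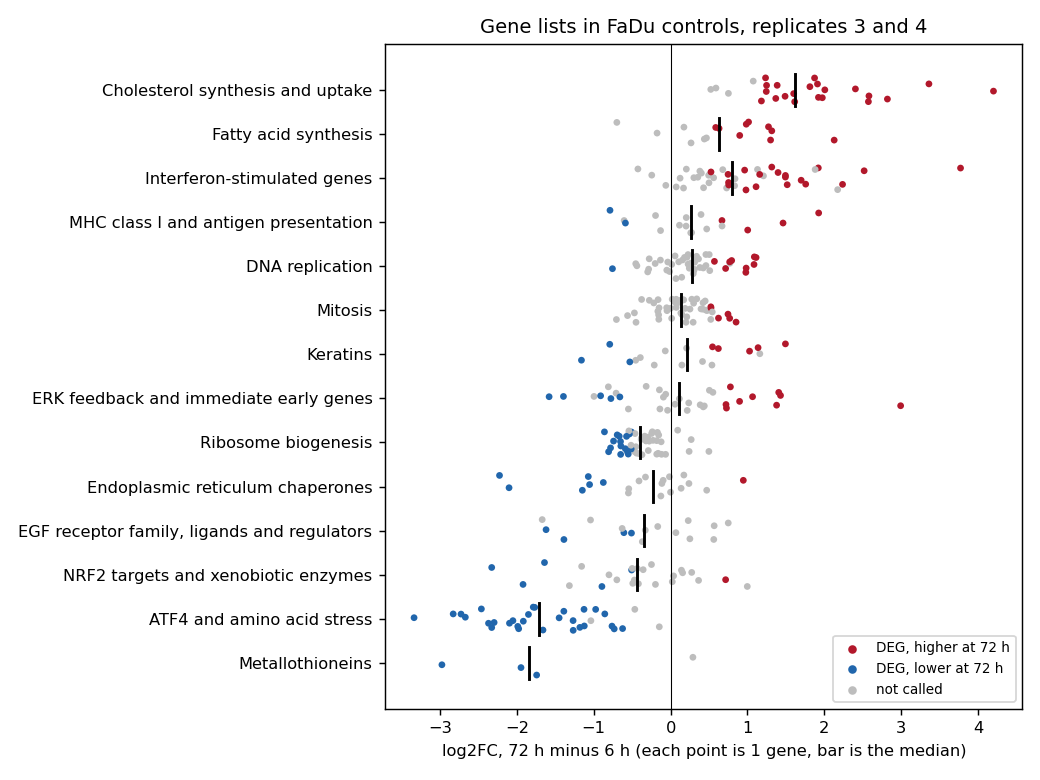
Log2FC (72 h minus 6 h) of each tested member of 14 gene lists, with 1 point per gene, DEGs in colour and a bar at the median of the list. All 25 cholesterol genes lie above 0 and all 32 genes of the ATF4 list below it, and the medians are 1.61 and -1.71.

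The ATF4 list was the reverse of the cholesterol list. Of its 34 genes, 32 were tested, 29 were lower and 0 were higher, where 7.67% of all genes tested were lower, and all 32 had a negative log2FC (median -1.71). In 30 of the 32, every library at 72 h lay below every library at 6 h, which held for 15.1% of all genes tested. The summed level of the list was 10815 to 11311 CPM at 6 h and 4062 to 4425 CPM at 72 h.

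The factors themselves were lower. ATF4 mRNA had 1368 and 1361 CPM in untreated and 1316 and 1342 CPM in Fc cells at 6 h, and 736 CPM in untreated and 526 and 520.2 CPM in Fc cells at 72 h (log2FC -1.18 ± 0.14, adjusted p = 9.99e-05). DDIT3 (CHOP), a factor induced by ATF4, fell from 36.9 ± 6.21 CPM to 9.37 ± 0.907 CPM, and TRIB3, a pseudokinase that dampens ATF4, from 317 ± 26.0 to 64.5 ± 3.44 CPM. CEBPG, a dimer partner of ATF4, had a log2FC of -1.66 ± 0.19. CHAC1, which degrades glutathione, had 83.3, 93.1, 105 and 92.5 CPM in the 4 libraries at 6 h and 10.0, 9.39 and 8.23 CPM in the 3 libraries at 72 h. With a log2FC of -3.34 ± 0.16 (adjusted p = 2.13e-07), it had the largest drop on the list, and its 6 h level was close in untreated and Fc cells. SESN2, a leucine sensor upstream of mTORC1, had a log2FC of -2.05 ± 0.16.

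Amino acid synthesis and import fell together. In the serine pathway, PHGDH, its first enzyme, had 703 to 794 CPM at 6 h and 281 to 478 CPM at 72 h (log2FC -1.12 ± 0.17). PSAT1, the next enzyme, had 580.2 and 438 CPM in untreated and 579.5 and 451 CPM in Fc cells at 6 h, and 48.1 CPM in untreated and 112 and 73.0 CPM in Fc cells at 72 h (log2FC -2.73 ± 0.24, adjusted p = 1.45e-05). MTHFD2 of mitochondrial folate metabolism had a log2FC of -1.85 ± 0.16, and PCK2, mitochondrial PEP carboxykinase, of -2.67 ± 0.29. ASNS, asparagine synthetase, was scarce in these cells, with 6.55 to 10.9 CPM at 6 h and 1.93 to 2.89 CPM at 72 h (log2FC -1.92 ± 0.32). Among transporters, SLC7A11, which imports cystine, had 303 to 317 CPM and 53 to 74.5 CPM (log2FC -2.33 ± 0.14), SLC6A9 had a log2FC of -2.86 ± 0.24, and SLC1A5, which imports glutamine, of -0.86 ± 0.14. Secreted products of the stress response fell as well: STC2 had 213 to 348 CPM at 6 h and 36.8 to 49.9 CPM at 72 h (log2FC -2.83 ± 0.19), and GDF15 had a log2FC of -2.10 ± 0.17. DDIT4, an inhibitor of mTORC1 and a gene of the prognostic signature of the study, had 451 to 858 CPM and 119.8 to 227 CPM (log2FC -1.99 ± 0.25, adjusted p = 0.000237). ATF4, DDIT3, TRIB3, CEBPG, SESN2, PHGDH, MTHFD2, ASNS and SLC1A5 were chosen after their values were seen.

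**Figure D3:**
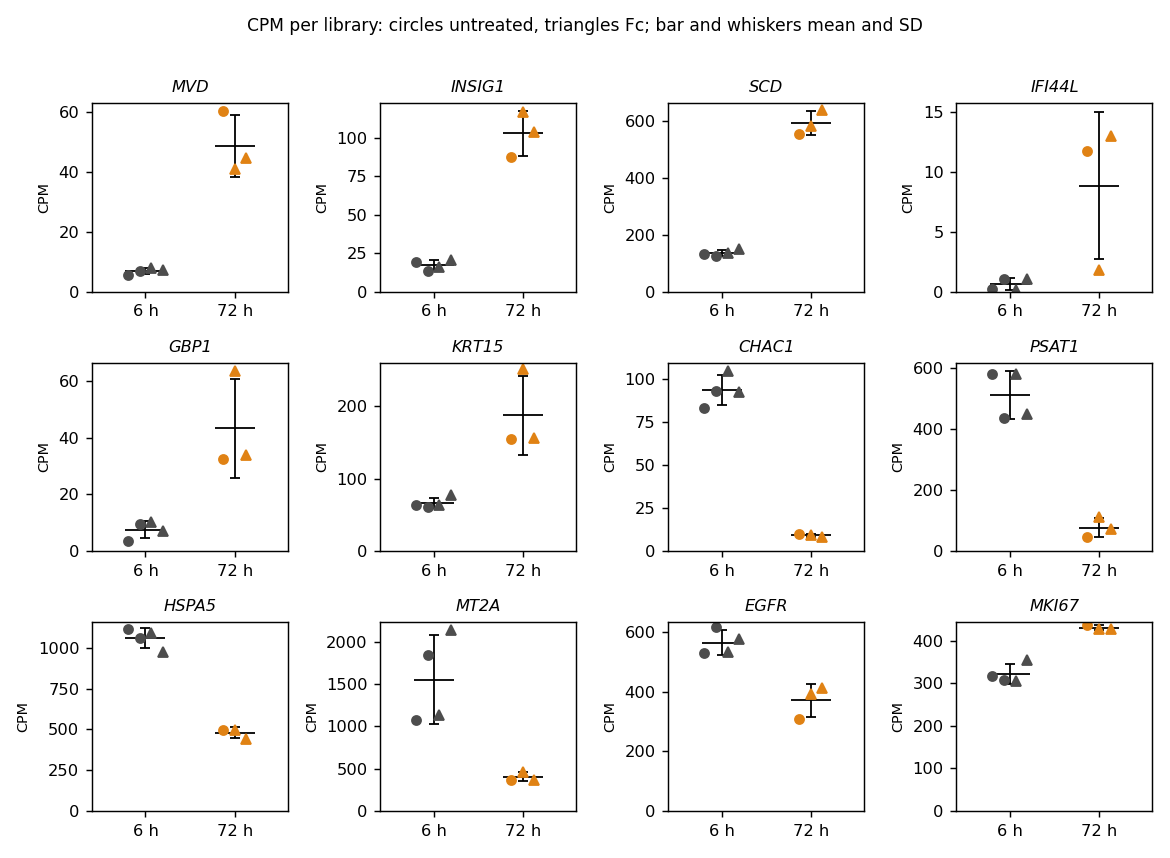
Level (CPM, linear axes from 0) of 12 genes in each of the 7 libraries at 6 h and 72 h, with circles for untreated and triangles for Fc cells and a bar and line for mean ± SD. MVD, INSIG1 and SCD separate upward without overlap, CHAC1, PSAT1, HSPA5 and MT2A separate downward, and IFI44L has 1 Fc library at 72 h close to the 6 h range.

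Of 20 genes for chaperones and related functions of the endoplasmic reticulum, 1 was higher and 6 were lower, next to 8.43% and 7.67% of all genes. Their median log2FC was -0.23. HSPA5 (BiP), the main chaperone of this compartment, had 976 to 1118 CPM at 6 h and 441 to 499.7 CPM at 72 h (log2FC -1.15 ± 0.11, adjusted p = 2.40e-05). XBP1, a factor of the unfolded protein response, fell from 272 ± 48.2 to 58.2 ± 17.6 CPM (log2FC -2.23 ± 0.20). HERPUD1, a part of the degradation machinery of this compartment, had a log2FC of -2.10 ± 0.19. Outside these lists, INHBE, an activin subunit, was the gene with the lowest log2FC of the ranking. It had 38.4 and 21.6 CPM in untreated and 37.0 and 24.6 CPM in Fc cells at 6 h, and 1.65 CPM in untreated and 1.78 and 1.56 CPM in Fc cells at 72 h (log2FC -4.18 ± 0.29, adjusted p = 2.14e-06). NIBAN1, a stress-induced gene, fell from 75.8 ± 10.4 to 4.77 ± 2.61 CPM.

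Most metallothioneins tested were lower. Of 8 metallothionein genes, 4 were tested and 3 were lower, where 7.67% of all genes tested were lower. MT2A had 1081 and 1850.2 CPM in untreated and 1134 and 2146 CPM in Fc cells at 6 h, with replicate 4 above replicate 3 in both. At 72 h, it had 371 CPM in untreated and 466 and 372 CPM in Fc cells (log2FC -1.95 ± 0.23, adjusted p = 0.000118). MT1E had 175 to 200.02 CPM and 15.4 to 32.2 CPM (log2FC -2.97 ± 0.21), and MT1X had a log2FC of -1.74 ± 0.25. FTH1, the heavy chain of ferritin and a gene of the NRF2 list, had 7641 and 4976 CPM in untreated and 7213 and 3789.5 CPM in Fc cells at 6 h, and 1042 CPM in untreated and 1918 and 1724 CPM in Fc cells at 72 h (log2FC -1.92 ± 0.25). Here replicate 3 lay above replicate 4 at 6 h. Of 25 NRF2 targets tested, including FTH1 and TXNRD1 (thioredoxin reductase, log2FC -1.64 ± 0.22), 1 was higher and 5 were lower. Among all genes tested, 8.43% were higher and 7.67% lower.

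Interferon-stimulated genes were higher, with more spread between libraries. Of 50 genes, 42 were tested, and 19 were higher and 0 lower (median log2FC 0.79), next to 8.43% and 7.67% of all genes. Their summed level was 833 to 1116 CPM at 6 h, and at 72 h it was 2227 CPM in untreated cells and 1407 and 1731 CPM in Fc cells. The untreated library was thus the highest at 72 h. IFI44L had 0.240 and 1.09 CPM in untreated and 0.128 and 1.04 CPM in Fc cells at 6 h, and 11.8 CPM in untreated and 1.78 and 13 CPM in Fc cells at 72 h (log2FC 3.77 ± 0.70, adjusted p = 0.00303). Fc replicate 3 at 72 h was close to the 6 h libraries. GBP1, an interferon-induced GTPase, had 3.598 and 9.57 CPM in untreated and 10.1 and 6.96 CPM in Fc cells at 6 h, and 32.6 CPM in untreated and 63.5 and 33.9 CPM in Fc cells at 72 h (log2FC 2.52 ± 0.32). MX1, an antiviral GTPase, had a log2FC of 2.24 ± 0.42 and IFI44 of 1.92 ± 0.41. Among genes of higher abundance, chosen after their values were seen, OAS3 rose from 17.8 ± 4.43 to 58.0 ± 15.9 CPM and ISG15, a ubiquitin-like modifier, from 29.3 ± 12.9 to 77.2 ± 25.7 CPM. In antigen presentation, 4 of 17 genes tested were higher and 2 lower, next to 8.43% and 7.67% of all genes. PSMB9, an immunoproteasome subunit, had 1.28 to 3.15 CPM and 7.79 to 11.3 CPM, and ERAP2, a peptidase that trims antigens, had 9.57 to 14.2 CPM and 29.7 to 34.5 CPM. The count of 19 higher interferon genes fell to 11 without untreated replicate 4 at 72 h, to 12 without Fc replicate 4 at 72 h and to 4 in Fc libraries alone. Over all genes, the count of 1090 higher DEGs fell to 588, 613 and 212 in the same fits.

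Most proliferation genes were not DEGs. Of 50 mitosis genes, 6 were higher and 0 lower (median log2FC 0.14), next to 8.43% higher and 7.67% lower of all genes tested, so that the higher count was near that of all genes. Of 46 replication genes, 9 were higher and 1 lower (median 0.28). At 72 h, every library lay above all at 6 h in 14 mitosis and 17 replication genes, and below in 3 and 1. Among all genes tested, 14.9% lay above and 15.1% below. The mitosis sum was 5415 to 6418 CPM at 6 h and 6809 to 7238 CPM at 72 h. For replication, the sum was 3720 to 4368 CPM and 4856 to 5117 CPM. TOP2A, a topoisomerase of dividing cells, had 571 to 752 CPM at 6 h and 874 to 1486 CPM at 72 h (log2FC 0.75 ± 0.17, adjusted p = 0.0115). MKI67 had 306 to 355 CPM and 428 to 437 CPM, without overlap, and at a log2FC of 0.42 ± 0.11 (adjusted p = 0.0165) it stayed under the threshold for a DEG. CLSPN, a checkpoint adaptor at the replication fork, had a log2FC of 1.09 ± 0.15, and E2F2, a factor of S-phase genes, of 1.11 ± 0.21. The CDK inhibitor CDKN1A had 15.7 and 29.7 CPM in untreated and 12.1 and 18.3 CPM in Fc cells at 6 h, and 8.46 CPM in untreated and 9.98 and 7.01 CPM in Fc cells at 72 h (log2FC -1.16 ± 0.29, adjusted p = 0.0169). MYC, a growth regulator, fell from 57.0 ± 22.3 to 21.7 ± 6.6 CPM, and of the D cyclins CCND2 had a log2FC of 0.83 ± 0.13 and CCND1 of -0.32 ± 0.12 (adjusted p = 0.0873). Ribosome biogenesis genes were lower in part: 16 of 48 were lower and 0 higher (median log2FC -0.39). DDX21, a nucleolar helicase, had 1109 to 1172 CPM and 643 to 706 CPM (log2FC -0.74 ± 0.10), and RRP12, a ribosome export factor, had a log2FC of -0.86 ± 0.18. In Fc libraries alone, 2 of the 48 were lower, while over all genes the lower DEGs fell from 992 to 260. TOP2A without untreated replicate 4 at 72 h (log2FC 0.47) and CDKN1A without Fc replicate 4 at 72 h (log2FC -1.04, adjusted p = 0.0816) were no longer DEGs.

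EGFR and its ligands and regulators, the axis that the study stimulated, had 4 lower and 0 higher of 16 tested. Among all genes tested, 7.67% were lower and 8.43% higher. EGFR had 532 and 619 CPM in untreated and 533 and 579 CPM in Fc cells at 6 h, and 309 CPM in untreated and 392 and 413 CPM in Fc cells at 72 h (log2FC -0.61 ± 0.13, adjusted p = 0.00623). AREG, an EGFR ligand, fell from 29.6 ± 12.2 to 9.69 ± 4.36 CPM, and ERRFI1, a feedback inhibitor of the receptor, from 77.5 ± 15.7 to 29.7 ± 6.98 CPM. EPCAM, from which EpEX is cut, had 405 to 450.0 CPM and 286 to 316 CPM (log2FC -0.51 ± 0.11). Both genes lay close to the threshold of 0.5, and EGFR without untreated replicate 4 at 72 h (log2FC -0.50) and EPCAM without either of 4 libraries in turn (log2FC -0.50 to -0.48) were just under it. Immediate early genes and ERK feedback genes went both ways, with 9 higher and 5 lower of 33, next to 8.43% and 7.67% of all genes. EGR1 rose from 318 ± 53.1 to 665 ± 231 CPM (chosen after its value was seen). EGR3 had 0.120 and 2.79 CPM in untreated and 0.257 and 3.33 CPM in Fc cells at 6 h, with replicate 4 above replicate 3, and 14.6 CPM in untreated and 4.52 and 20.7 CPM in Fc cells at 72 h (log2FC 2.99 ± 0.70). Without Fc replicate 4 at 72 h, the log2FC of EGR3 was 2.53 (adjusted p = 0.0778). PHLDA1 fell, with 132 to 179 CPM and 50.5 to 55.2 CPM (log2FC -1.58 ± 0.14). Of the other signature genes of the study, ITGB4 (-0.074 ± 0.22), FADD (0.012 ± 0.11), NCEH1 (0.45 ± 0.22) and TIMP1 (-0.072 ± 0.17) had a log2FC that did not pass the test, and the 6 h and 72 h libraries of each overlapped. CDH1, E-cadherin, had a log2FC of -0.25 ± 0.22 (adjusted p = 0.451), and VIM, vimentin, did not pass the filter on low counts.

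Keratins and differentiation genes were split. Of 17 keratins tested, 5 were higher and 3 lower, next to 8.43% and 7.67% of all genes. KRT15, a keratin of basal cells, had 61.3 to 76.7 CPM at 6 h and 155, 249.97 and 156 CPM at 72 h (log2FC 1.49 ± 0.17, adjusted p = 9.97e-05). KRT5, also basal, rose from 240.5 ± 37.8 to 490.1 ± 49.8 CPM, and KRT19, a simple epithelial keratin, from 270.3 ± 86.2 to 595 ± 166 CPM. KRT16, a keratin of stressed epithelium, had 60.4 to 70.6 CPM and 26.5 to 35.2 CPM (log2FC -1.16 ± 0.15). Of 24 cornified envelope genes tested, 0 were higher and 3 were lower, which is near the share of all genes (7.67% lower), and the plakin PPL was among the 3 (log2FC -1.09 ± 0.15). S100P, a calcium-binding protein, had 82.1 and 31.2 CPM in untreated and 84.0 and 16.1 CPM in Fc cells at 6 h, and 2.48 CPM in untreated and 5.94 and 1.45 CPM in Fc cells at 72 h (log2FC -4.04 ± 0.60). Replicate 3 was the higher in S100P in both agents at 6 h.

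The other genes at the ends of the ranking belong to none of these lists or to a small part of one. Among those that were higher, SRGAP3, a GTPase-activating protein, had 1.93 to 3.15 CPM at 6 h and 19.5 to 21.2 CPM at 72 h (log2FC 3.07 ± 0.25). DOC2A, a calcium sensor of vesicle fusion, and ALDOC, a glycolytic aldolase, had a log2FC of 3.27 ± 0.38 and 2.83 ± 0.31. KCNK2, a potassium channel, BTN3A1, a butyrophilin, and FAT2, a protocadherin, had a log2FC of 3.02 ± 0.48, 2.87 ± 0.45 and 2.65 ± 0.45. TNFAIP3, an NF-kappaB inhibitor, rested on 1 library: it had 0.727 to 1.94 CPM at 6 h, and 2.76 CPM in untreated and 32.2 and 3.45 CPM in Fc cells at 72 h (log2FC 3.20 ± 0.75, adjusted p = 0.0118). Without Fc replicate 3 at 72 h, its log2FC was 1.15 (adjusted p = 0.198). Whether that library holds RNA of another sample was not tested. Among those that were lower, MAP1B, a microtubule-associated protein, had 45.4 to 71.2 CPM and 2.11 to 6.54 CPM (log2FC -3.61 ± 0.31), UNC5B, a netrin receptor, had a log2FC of -2.87 ± 0.27, and TUBE1, epsilon-tubulin, of -2.98 ± 0.33. The calcium pump ATP2C2 and the antisense RNAs LURAP1L-AS1 and VLDLR-AS1 had a log2FC of -3.21 ± 0.43, -3.88 ± 0.49 and -3.48 ± 0.33. Whether reads were assigned by strand is not stated in the sources used here, so that reads of antisense RNAs and of the genes they overlap may not have been told apart.

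Both kinds of control were then compared, since untreated and Fc libraries were joined. The difference between Fc and untreated cells in the change from 6 h to 72 h gave 0 DEGs of 12935 in edgeR and 0 in DESeq2, and before adjustment 801 genes had a p under 0.05 in edgeR. With the replicate number as a block, this comparison gave 33 DEGs (5 with the higher and 28 with the lower log2FC in Fc cells). Fc against untreated cells over both times gave 0 DEGs in edgeR and 0 in DESeq2, and before adjustment 338 genes had a p under 0.05 in edgeR. With 1 untreated library at 72 h, these counts do not show that both controls changed alike.

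Libraries of treated FaDu cells of replicates 3 and 4 share no sample with the controls and gave the same comparison in other samples. In these 12 libraries (7 at 6 h and 5 at 72 h, with treatment as a term), 2849 of 15454 genes were DEGs (18.4%; 9.67% higher and 8.77% lower). Of 1087 DEGs that were higher in controls and tested in both, 564 were also higher in treated cells, which is 51.9% of the control DEGs and 40.6% of the 1389 treated DEGs, and 8 were lower. Of 992 that were lower in controls, 542 were lower in treated cells (54.6% and 40.8% of 1330), and 1 was higher. The cholesterol list had 24 higher and 0 lower in treated cells (median log2FC 1.66), and the ATF4 list had 0 higher and 28 lower (median -1.37). INSIG1 had a log2FC of 2.72, SCD of 2.52, CHAC1 of -2.48 and ATF4 itself of -1.53 in treated cells. The interferon list had 7 higher and 1 lower of 44 tested (median 0.18) in treated cells, and GBP1 had a log2FC of -1.07 (adjusted p = 0.105). The difference between treated and control cells in this change was not tested. Ribosome biogenesis genes had 1 higher and 32 lower (median -0.58).

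The summed levels by agent set treated libraries beside controls, first at 72 h. There was 1 library for each of EGFlow, EGFhigh and EpEX and 2 for EGFhigh with EpEX, so that no test was made by agent. The cholesterol sum was 2442 to 2794 CPM under all 4 treatments, next to 2762 to 2846 CPM in controls. The ATF4 sum was 3427 CPM under EpEX, 4975 and 6141 CPM under EGFhigh with EpEX, 7407 CPM under EGFhigh and 7787 CPM under EGFlow, next to 4062 to 4425 CPM in controls. The metallothionein sum was 613 CPM under EpEX but 2064 and 2539 CPM under EGFhigh with EpEX, 3333 CPM under EGFlow and 6591 CPM under EGFhigh, next to 401 to 513 CPM in controls. The interferon sum was 1414 CPM under EpEX and 851 to 1130 CPM in the 4 libraries that had EGF, next to 1407 to 2227 CPM in controls. At 72 h, the EpEX library was thus within or near the range of the controls for the cholesterol and interferon sums. It was below that range for ATF4 and above it for metallothioneins. At 6 h, the ATF4 sum was already 12829 to 14132 CPM under treatment, next to 10815 to 11311 CPM in controls. The metallothionein sum at 6 h was 2916 to 4733 CPM under EGFlow, EGFhigh or EpEX, next to 1292 to 2395 CPM in controls. Under EGFhigh with EpEX it was 1597 CPM. By 72 h this sum had risen under EGFhigh, alone or with EpEX. The cholesterol and interferon sums overlapped at 6 h.

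**Figure D4:**
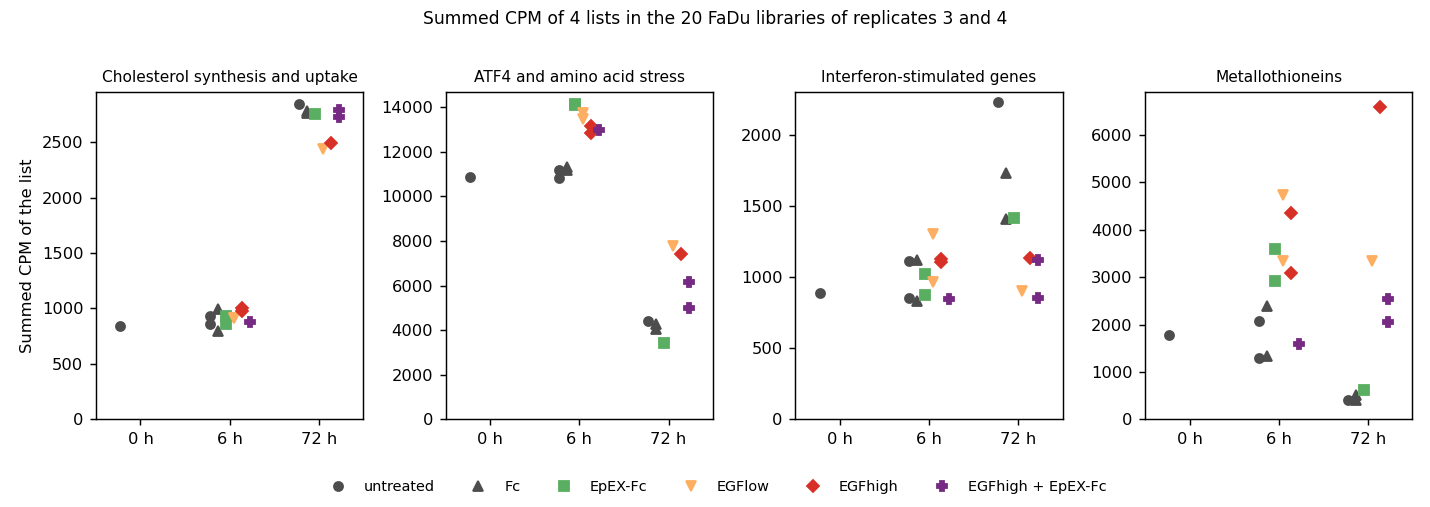
Summed level (CPM) of 4 gene lists in each of the 20 FaDu libraries of replicates 3 and 4 at 0, 6 and 72 h, with 1 colour or marker per treatment. The cholesterol sums rise at 72 h under every treatment, and the ATF4 sums fall under every treatment but least in the EGFlow and EGFhigh libraries.

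A single untreated library of replicate 3 was collected at 0 h, after the 24 h without serum, and it gives values with no spread. Its ATF4 sum was 10884 CPM, its cholesterol sum 838 CPM and its interferon sum 884 CPM, all within the range at 6 h. Of the DEGs of these lists, 0 of 29, 0 of 21 and 0 of 19 were nearer at 0 h to the 72 h mean than to the 6 h mean. Over all DEGs, 189 of 1090 that were higher and 104 of 992 that were lower were nearer to 72 h. Mitochondrial genes took 12.4% of reads at 0 h, close to the 72 h libraries. Reads outside genes took 7.97%, and 16853 genes had at least 1 read, both within the range at 6 h. The part of these measures in the results was not tested.

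The change in FaDu was set against that of Kyse30 controls over the same times (6 libraries at each, untreated and Fc). These were replicates 1, 3 and 4 at 6 h and replicates 1, 2 and 3 at 72 h, and mitochondrial genes took 6.96% to 9.08% of reads in Kyse30 replicates 1 and 2 and 12.3% to 12.9% in replicates 3 and 4. In Kyse30, 1392 of 12167 genes were DEGs (11.4%; 5.97% higher and 5.47% lower). A test of the difference between the lines, in a joint fit of the 19 libraries that includes the 7 described here, gave 857 DEGs of 15118 genes (5.67%), of which 493 had the higher log2FC in FaDu (3.26%) and 364 the lower (2.41%). The cholesterol list had 20 of 25 genes with a higher log2FC in FaDu and 0 with a lower one, and in Kyse30 alone 11 of its genes were lower at 72 h and 0 higher (median log2FC -0.52). INSIG1 had a log2FC of -0.67 in Kyse30 (adjusted p = 0.00937), and the difference between the lines was 3.27 ± 0.26 (adjusted p = 6.39e-09). The ATF4 list had 25 genes with a lower log2FC in FaDu, while in Kyse30 3 were higher and 1 lower of 29 (median 0.11). NIBAN1 differed by -4.10 ± 0.34 and CHAC1 by -4.17 ± 0.60, and neither was a DEG in Kyse30 (log2FC 0.12 and 0.81). With Kyse30 replicates 1 and 3 only, which were present at both times, 20 cholesterol genes had the higher log2FC in FaDu and 24 ATF4 genes the lower. With Kyse30 replicates 3 and 4 only (4 libraries at 6 h and 2 at 72 h), these counts were 21 and 26, and in Kyse30 alone 2 cholesterol genes were lower and CHAC1 had a log2FC of -0.64.

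Proliferation also parted the lines. Of 50 mitosis genes, 41 were lower at 72 h in Kyse30 (median log2FC -0.87) and 32 had a higher log2FC in FaDu. With Kyse30 replicates 3 and 4 only, 13 mitosis genes were lower in Kyse30 and 23 had a higher log2FC in FaDu. TOP2A had a log2FC of -0.77 in Kyse30 and differed by 1.54 ± 0.30. EGFR went opposite ways, with a log2FC of 1.34 in Kyse30 and a difference of -1.92 ± 0.19 (adjusted p = 1.57e-07). CD55, a complement regulator, fell in FaDu from 120.3 ± 5.14 to 19 ± 3.64 CPM and rose in Kyse30 (log2FC 1.51), a difference of -4.15 ± 0.27. Of 41 interferon genes tested in Kyse30, 27 were higher and 0 lower (median 1.09), and 7 genes of the list had a lower log2FC in FaDu. Among them, IFITM3, an antiviral membrane protein, had 289 to 418 CPM at 6 h and 438 to 965 CPM at 72 h in FaDu and differed by -1.54 ± 0.25 (chosen after its values were seen).

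**Figure D5:**
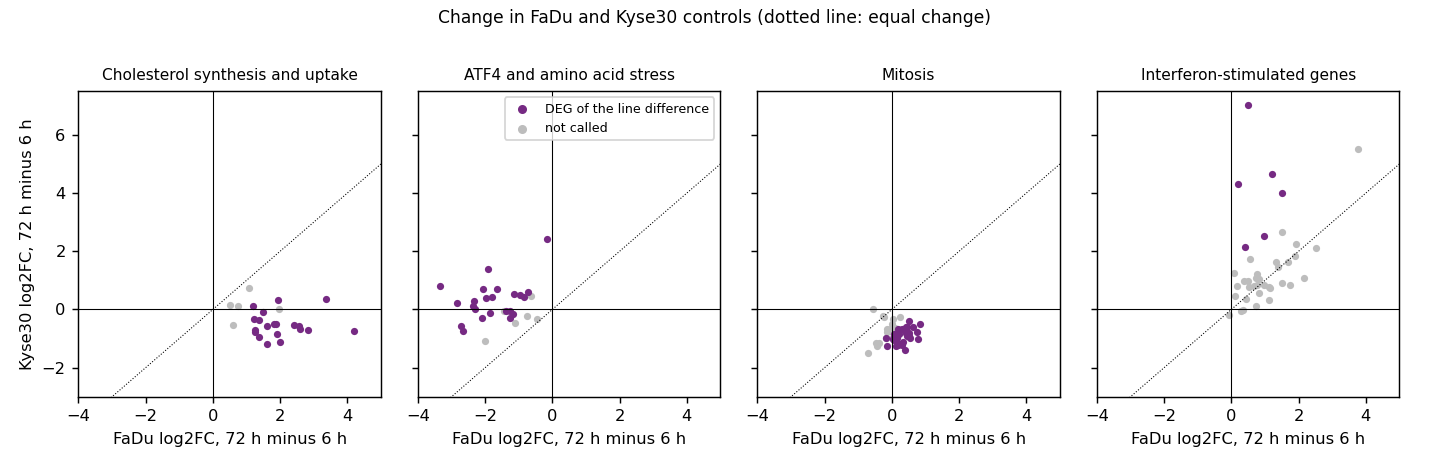
Log2FC (72 h minus 6 h) in FaDu controls on the x axis against Kyse30 controls on the y axis, for the cholesterol, ATF4, mitosis and interferon lists, with 1 point per gene and genes whose difference between the lines was a DEG in purple. Cholesterol genes lie to the right near or below 0, ATF4 genes to the left near 0, mitosis genes below 0 in Kyse30, and interferon genes above 0 in both lines.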

How the data were processed

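The authors sequenced 3′ ends of total RNA of cell cultures (QuantSeq 3′ mRNA-Seq, FWD), and STAR, HTSeq and GRCh38/hg38 are named in their processing notes; the versions, the annotation, the strand rule of counting and any molecular identifiers are not given in the sources used here. The deposited values are raw counts per Ensembl gene for 58395 genes, which were matched to symbols through the gene table, with tallies of unassigned reads that were left out of library sizes and tests. In the 7 libraries, 44.6% to 50.2% of reads were tallied as not uniquely aligned. No 2 libraries held identical counts.

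The 7 libraries were grouped by time from the labels. Genes were filtered with filterByExpr (minimum count 10, minimum total 15), scaled by TMM and tested with the quasi-likelihood test of edgeR 4.0.16 in R 4.3.3, with Benjamini-Hochberg adjustment over all 12935 genes and the DEG threshold of the study. Alternatives were DESeq2 1.42.0, RLE scaling, other filters, all 20 libraries of replicates 3 and 4, agent and replicate terms, subsets by agent or replicate, thinned counts, FaDu replicates 1 and 2, Kyse30 libraries by replicate (added after seeing the data), and leaving out each library. Figures were drawn with matplotlib 3.10.9 in Python 3.11.15. Data were simulated for the comparison of 72 h with 6 h in FaDu controls (12935 genes). Of 89 genes with a true log2FC of 1, 52.8% were called, and of 111 genes with 2, 82.0%, with 6 false calls. For the difference between the lines (15118 genes), these shares were 17.9% of 84 genes and 61.2% of 116 genes, with 6 false calls. Fewer genes were changed in the simulations than the 2082 and 857 DEGs called here, so that these figures may not carry over to the data.

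Described genes came from a rule: the 12 DEGs with the highest and the 12 with the lowest log2FC without overlap and with a mean of at least 10 CPM at the higher time, up to 4 DEGs per list with a mean of at least 5 CPM, a set that was always checked, and 5 genes at each end of the difference between the lines. Of these and of genes chosen after their values were seen, 89 are described, and a few others that the rule picked are not reported here. The libraries, the 42 gene lists and the motifs were chosen with earlier results of these data known. Libraries with the same replicate number deviated together by -0.025 to 0.318 between times (mean 0.150, 6 pairs), and libraries with different numbers by a mean of -0.150. These means mirror each other and are not separate results. The numbers were not taken as pairs in the main test. At 6 h, the second principal component (16.1% of variance) split libraries by number, with 21.1 and 11.3 in replicate 3 and -24.4 and -30.2 in replicate 4. Untreated and Fc libraries of the same number may thus not be independent, though the p-values and SDs treat them so.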

Additional observations from a re-analysis of the deposited data

Results flagged for a closer look

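Among the 4 libraries at 6 h, 1 library lay far from the other 3 by Dixon's ratio (gap over range) for 5 of the 89 described genes, where chance flags about 1 in 20. Fc replicate 4 stood out for MT1X (ratio 0.942) with 42.3 CPM against 24.5 to 25.6 CPM, for ASNS (0.856) with 6.55 CPM against 10.3 to 10.9 CPM, and for DDIT3 (0.860) with 27.6 CPM against 39.0 to 40.9 CPM. MYC (0.854) had 90.1 CPM in Fc replicate 3 and 42.1 to 49.2 CPM in the others. VLDLR-AS1 (0.890) had 23.0 CPM in untreated replicate 3 and 15.6 to 16.4 CPM in the others. The 3 libraries at 72 h were too few for this test.

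The change from 6 h to 72 h differed between FaDu and Kyse30 controls for 857 genes in edgeR. At the upper end, INHBA, the activin A subunit, differed by 5.00 in log2FC, but this rested on 103 CPM in Fc replicate 3 at 72 h, with 0.478 to 1.02 CPM in the other 6 FaDu libraries and 7.63 to 31.4 CPM in Kyse30. Without that library, the difference of INHBA was -0.41 (adjusted p = 0.836). ZBED2 (4.89) was highest among FaDu libraries in the same one, with 3.20 CPM next to 21.2 to 41.8 CPM in Kyse30, and its difference without it was 1.69 (adjusted p = 0.590). FMN1 (4.93) was at 0 in the FaDu libraries at 6 h and in 1 at 72 h, so that its fitted value depends on the prior count, and AADACP1, a pseudogene (5.42), had 5.37 to 14.98 CPM in FaDu (log2FC 0.38) and 0 to 1.44 CPM at 6 h and 0 in the 6 libraries at 72 h in Kyse30, so that its fitted value depends on the prior count too. Without Fc replicate 3 at 72 h, FMN1 was no longer called (adjusted p = 0.0981), and TNFAIP3 was also high in that library. Whether this library holds RNA of another sample was not tested, and its values carry that doubt.

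At the lower end, STRA6, a retinol transporter, differed by -4.18, with 4.54 to 6.56 CPM at 6 h and 0 to 0.554 CPM at 72 h in FaDu. DHRS2, a short-chain dehydrogenase, differed by -4.22, with 54.9 to 141 CPM and 9.25 to 21.3 CPM in FaDu. In Kyse30 it had 0.144 to 2.15 CPM at 6 h and 0 to 3.55 CPM at 72 h. There it did not pass the filter on low counts in the fit of that line alone, so that its difference rests on few reads in Kyse30. IFI27, an interferon-stimulated gene, differed by -6.54, with 5.02 to 30.2 CPM and 17.5 to 26.3 CPM in FaDu, and with 0 to 0.161 CPM at 6 h and 5.42 to 20.5 CPM at 72 h in Kyse30. ID4 (-6.86) had reads in 1 of the 7 FaDu libraries, and VLDLR-AS1 (-7.04) had reads in 1 of the 12 Kyse30 libraries, so that both fitted values depend on the prior count.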

How the results depend on the processing

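DEGs numbered 2082 in the 7 libraries. The count was 472 in Fc libraries only (212 higher, 260 lower; 2 libraries per time) and 0 (0 higher, 0 lower) with FaDu replicates 1 and 2 in place of 3 and 4. Leaving out 1 library gave 1247 to 2264 DEGs (588 to 1129 higher, 634 to 1135 lower), with 1336 and 588 higher without untreated replicate 4 at 72 h and 1247 (613 higher, 634 lower) without Fc replicate 4 at 72 h. The other alternatives gave 1613 to 2580 DEGs, among them 2471 with DESeq2, and every DEG tested kept its sign in all of them. No label says what libraries with the same replicate number share. With a replicate block 2483 DEGs were called, 2020 of them the same with the same sign. With this block, the difference between Fc and untreated cells gave 33 DEGs (5 higher, 28 lower) in place of 0. In the difference between the lines, DESeq2 called 578 genes as lower in FaDu in place of 364. With Kyse30 replicates 3 and 4 only, chosen after seeing the data, DEGs in Kyse30 numbered 340 (216 higher, 124 lower) in place of 1392 (726 higher, 666 lower), from 6 libraries in place of 12, while the difference between the lines gave 685. Of the described genes, 34 values changed sign under an alternative other than leaving out a library. In FaDu replicates 1 and 2, the log2FC was -1.89 for DOC2A, -1.20 for TNFAIP3, -0.037 for ALDOC, -1.14 for MVD, -1.58 for SCD, -0.93 for FASN, -0.61 for HMGCS1, -1.67 for SQLE, -0.26 for SREBF2, -0.059 for ACACA, -1.73 for ERAP2, -0.059 for IFITM3, -0.47 for EGR1, -0.46 for E2F2, -4.75 for CCND2, -0.10 for MKI67, -2.72 for KRT15, -0.018 for KRT19 and -1.19 for KRT5. It was 1.90 for NIBAN1, 2.60 for MAP1B, 0.22 for UNC5B, 0.67 for HSPA5, 0.88 for PPL, 0.57 for PHLDA1, 1.13 for ERRFI1, 0.90 for SLC7A11, 1.58 for TXNRD1, 0.33 for CD55, 0.88 for CCND1 and 0.67 for TIMP1 (all adjusted p = 0.999 in edgeR). The other changes of sign were in genes that were not DEGs: 0.077 for TIMP1 in Fc libraries only, 0.36 for ITGB4 in untreated libraries only, 0.10 for CDH1 within replicate 4, and, leaving out 1 library, -0.35 to 0.10 for ITGB4, -0.023 to 0.035 for FADD and -0.26 to 0.049 for TIMP1. The difference between the lines of INHBA became -0.41 without Fc replicate 3 at 72 h, a fit added after seeing the data. Cholesterol genes called as higher numbered 20 to 24 and ATF4 genes called as lower 24 to 30 in all alternatives but replicates 1 and 2, where both were 0. The causes were not tested. At 0.265 to 0.380 CPM for 3 reads, genes near 1 CPM such as IFI44L at 6 h rest on few reads.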
